A study of Homo sapiens with 12 samples.

Results

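The genes described here are the 7 cyclin-dependent kinase (CDK) inhibitor genes of the human genome: CDKN1A, CDKN1B and CDKN1C of the CIP/KIP family, and CDKN2A, CDKN2B, CDKN2C and CDKN2D of the INK4 family. They were taken by name from the 19970 protein-coding genes of the GENCODE annotation (release 44, GRCh38), and the rule that lists them uses no measured value. All 7 were found. Around each gene, H3K4me2 peaks were read in a window of 50 kb on each side of the canonical start site, widened to hold the gene body. The windows of CDKN2A and CDKN2B overlap on chromosome 9, so the 7 genes gave 6 separate windows of 634 kb in all.

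INK4 proteins bind CDK4 and CDK6 and keep them from pairing with D-type cyclins. CIP/KIP proteins bind cyclin-CDK complexes, chiefly those with CDK2, and block them at the G1/S transition, although they also help cyclin D complexes to form. Both families thereby keep the retinoblastoma protein unphosphorylated and hold cells out of S phase, and several of the genes are induced when myeloid cells stop dividing and mature. H3K4me2, dimethylation of lysine 4 of histone H3, marks promoters and enhancers that are open or primed. At active promoters it typically flanks a nucleosome-poor start site, where trimethylation is often the higher state.

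The cells were U-937, an established line of human monocyte-like leukaemia cells that the labels call AML cells. They were kept for 24 hours with DMSO as the vehicle, with all-trans retinoic acid (ATRA) at 0.1 µM, with Corin at 0.1 µM, or with ATRA and Corin together at 0.1 µM each. ATRA is the ligand of the retinoic acid receptors, and Corin inhibits the demethylase LSD1 and the deacetylases HDAC1 and HDAC2 within the CoREST complex. Each treatment had 2 H3K4me2 libraries and 1 input, 12 libraries in total, and 1 deposited peak list stands for all of them. There is therefore no spread between replicates behind any value below, no test was possible, and all differences between treatments are descriptions of these lists. It is 1 cell line, and the lists hold no measure of transcription.

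The number of peaks was 65172 under DMSO, 66385 under ATRA, 73997 under Corin and 83969 under ATRA+Corin. The relative depth of the H3K4me2 libraries, recovered from the peaks' own values, was 1.02 (ATRA), 1.10 (Corin) and 1.20 (ATRA+Corin) with DMSO at 1, so the lists' lengths and depths went up in the same order. A peak lay within 1 kb of the start site of 6 of 7 myeloid marker genes in each list, with MPO as the exception. The same held for 1 of 3 T cell, 1 of 3 B cell, 0 of 3 erythroid and 0 of 3 epithelial marker genes.

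Sequences at the start sites are shown first, because the lists differed in whether the start itself lay under a peak. Each run is the RefSeq promoter (GRCh38.p14), from 250 bases before to 50 bases after a start site, in the direction of transcription. Capitals mark the GC box GGGCGG, the CCAAT box CCAAT and the ETS core GGAAGT, on either strand. The table matched 6 of the 7 genes with 9 entries; it held none for CDKN1C. The 6 runs chosen are the start with the strongest DMSO peak (CDKN1A), a start between flanking peaks in the DMSO list (CDKN1B), both starts of CDKN2A, and the starts that left a peak with Corin (CDKN2C, CDKN2D).
CDKN1A, chr6:36678464-36678763, plus strand: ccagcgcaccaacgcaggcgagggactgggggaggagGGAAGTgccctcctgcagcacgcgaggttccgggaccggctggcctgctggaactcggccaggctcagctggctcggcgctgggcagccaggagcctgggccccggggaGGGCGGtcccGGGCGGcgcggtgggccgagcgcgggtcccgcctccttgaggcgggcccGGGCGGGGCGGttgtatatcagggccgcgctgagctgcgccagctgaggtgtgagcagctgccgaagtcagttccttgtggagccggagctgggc
CDKN1B, chr12:12717118-12717417, plus strand: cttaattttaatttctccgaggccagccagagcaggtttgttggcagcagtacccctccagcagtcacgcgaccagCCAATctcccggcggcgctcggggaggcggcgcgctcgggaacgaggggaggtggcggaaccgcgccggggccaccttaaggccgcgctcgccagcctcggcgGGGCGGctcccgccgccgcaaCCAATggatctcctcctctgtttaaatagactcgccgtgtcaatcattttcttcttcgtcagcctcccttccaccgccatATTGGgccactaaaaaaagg
CDKN2A, p16 start, chr9:21974808-21975107, minus strand: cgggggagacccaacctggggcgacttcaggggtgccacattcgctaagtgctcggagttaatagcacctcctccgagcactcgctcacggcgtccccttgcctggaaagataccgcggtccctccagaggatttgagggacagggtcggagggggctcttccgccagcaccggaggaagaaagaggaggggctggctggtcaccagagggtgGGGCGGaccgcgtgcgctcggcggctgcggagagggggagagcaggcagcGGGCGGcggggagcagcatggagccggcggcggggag
CDKN2A, ARF start, chr9:21995275-21995574, minus strand: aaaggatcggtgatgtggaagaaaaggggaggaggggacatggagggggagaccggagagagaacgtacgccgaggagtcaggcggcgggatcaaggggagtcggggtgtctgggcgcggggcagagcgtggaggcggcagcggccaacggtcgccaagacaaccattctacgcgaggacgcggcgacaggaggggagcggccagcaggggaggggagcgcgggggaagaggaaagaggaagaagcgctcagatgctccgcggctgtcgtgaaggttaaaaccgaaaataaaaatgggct
CDKN2C, middle start, chr1:50968456-50968755, plus strand: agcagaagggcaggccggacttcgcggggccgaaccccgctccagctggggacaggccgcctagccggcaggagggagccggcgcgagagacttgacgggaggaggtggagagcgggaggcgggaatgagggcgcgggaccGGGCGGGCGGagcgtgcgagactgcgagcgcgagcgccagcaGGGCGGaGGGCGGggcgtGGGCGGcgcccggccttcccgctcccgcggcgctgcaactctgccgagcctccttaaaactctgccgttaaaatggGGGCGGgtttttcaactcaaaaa
CDKN2D, chr19:10568930-10569229, minus strand: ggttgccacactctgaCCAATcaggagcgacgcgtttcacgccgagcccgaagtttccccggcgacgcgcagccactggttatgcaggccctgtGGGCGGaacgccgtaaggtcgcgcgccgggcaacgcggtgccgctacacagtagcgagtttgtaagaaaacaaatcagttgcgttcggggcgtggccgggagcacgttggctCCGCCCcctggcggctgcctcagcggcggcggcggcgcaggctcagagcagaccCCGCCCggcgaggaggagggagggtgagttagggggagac

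All 6 of these promoters had more CpG than the median promoter, with between 26 (CDKN2A, p16 start) and 37 (CDKN2C, middle start) CpG dinucleotides in 300 bases, against a median of 21 over 21554 promoters. The CDKN1A promoter had 4 GC boxes and a GC content of 74.3%, and the CDKN2C promoter 6 GC boxes. A GC box occurred in 56.8% of all promoters. CDKN1B carried 3 CCAAT boxes and CDKN2D 1, a motif present in 34.8% of promoters. The retinoid receptor motif AGGTCA occurred in none of the members' 9 promoters and in 11.7% of all promoters. The other 2 entries of CDKN2C, at its upstream and canonical starts, had 8 and 11 CpG. A match here is a string of letters and not a measured site.

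The windows of the 7 genes held more peak-covered sequence in each treated list than in the DMSO list. Peaks covered 84.9 kb with DMSO, 97.0 kb with ATRA, 110.8 kb with Corin and 128.6 kb with ATRA+Corin, that is 13.4%, 15.3%, 17.5% and 20.3% of the windows. The ratios to DMSO were 1.14, 1.31 and 1.52, against 1.14, 1.29 and 1.48 for the length covered over the whole genome. The summed growth of the windows was thus close to that of the lists themselves. It was spread unevenly, from CDKN1A, whose covered length with ATRA+Corin was 1.78 times that with DMSO, to CDKN1C, where the ratio was 1.17.

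**Figure D1:**
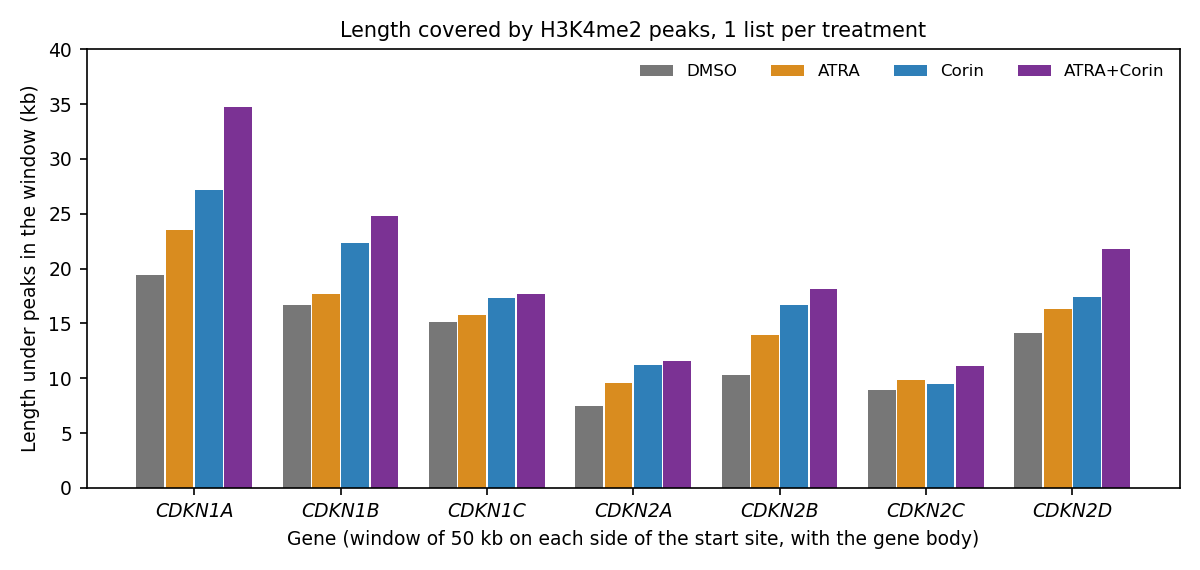
Length under H3K4me2 peaks (kb, vertical axis) in the window of each of the 7 genes (horizontal axis), with 1 bar for each treatment's pooled list and no error bars because there is 1 list per treatment. CDKN1A went from 19.4 kb with DMSO to 34.7 kb with ATRA+Corin, while CDKN1C stayed between 15.1 and 17.7 kb.

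Overlapping or adjoining peaks from all 4 lists were joined into 1 region, and the windows held 68 of the 84577 regions. A region was gained when only the first list of a comparison had a peak there, and lost when only the second did. Of the 68 regions, 38 were present in all 4 lists (55.9%, against 51.2% of all regions) and 15 only in the ATRA+Corin list (22.1% against 16.3%). No region of the windows was only in the DMSO list or only in the ATRA list, patterns that made up just 2.2% and 2.9% of all regions.

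With ATRA, 6 regions were gained and 2 lost against DMSO. 4 of 7 members had a gained region, where 42% of all protein-coding genes did, and 2 had a lost one (24.8% of all genes). With Corin, 9 regions were gained and 1 lost, in 5 members (54% of all genes) and 1 member (25.8%). With ATRA+Corin, 24 regions were gained and 1 lost, in 7 members (67.8% of all genes) and 1 member (20.3%). Against ATRA alone, the combination had 20 gained regions in 7 members (63.2%) and 1 lost in 1 member (21.6%). Against Corin alone, it had 18 gained in 6 members (59%) and 3 lost in 2 members (28.7%). The gained regions made up 36.9% of the windows' ATRA+Corin regions against DMSO, and 36.6% over the genome. For ATRA the shares were 13.0% in the windows (6 of 46 regions) and 17.7% over the genome, and for Corin 18.0% (9 of 50) and 24.2%. These differences rest on few regions, and with a −log10 q of at least 5 the gained counts were 8 for ATRA and 8 for Corin. The members' windows were dense with peaks, with a median of 6 DMSO regions against 4 for all genes. Of the 24 gained regions, 13 had a peak with a −log10 q of 5 or more, and at equal depth the combination had 18 gained and 3 lost.

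**Figure D2:**
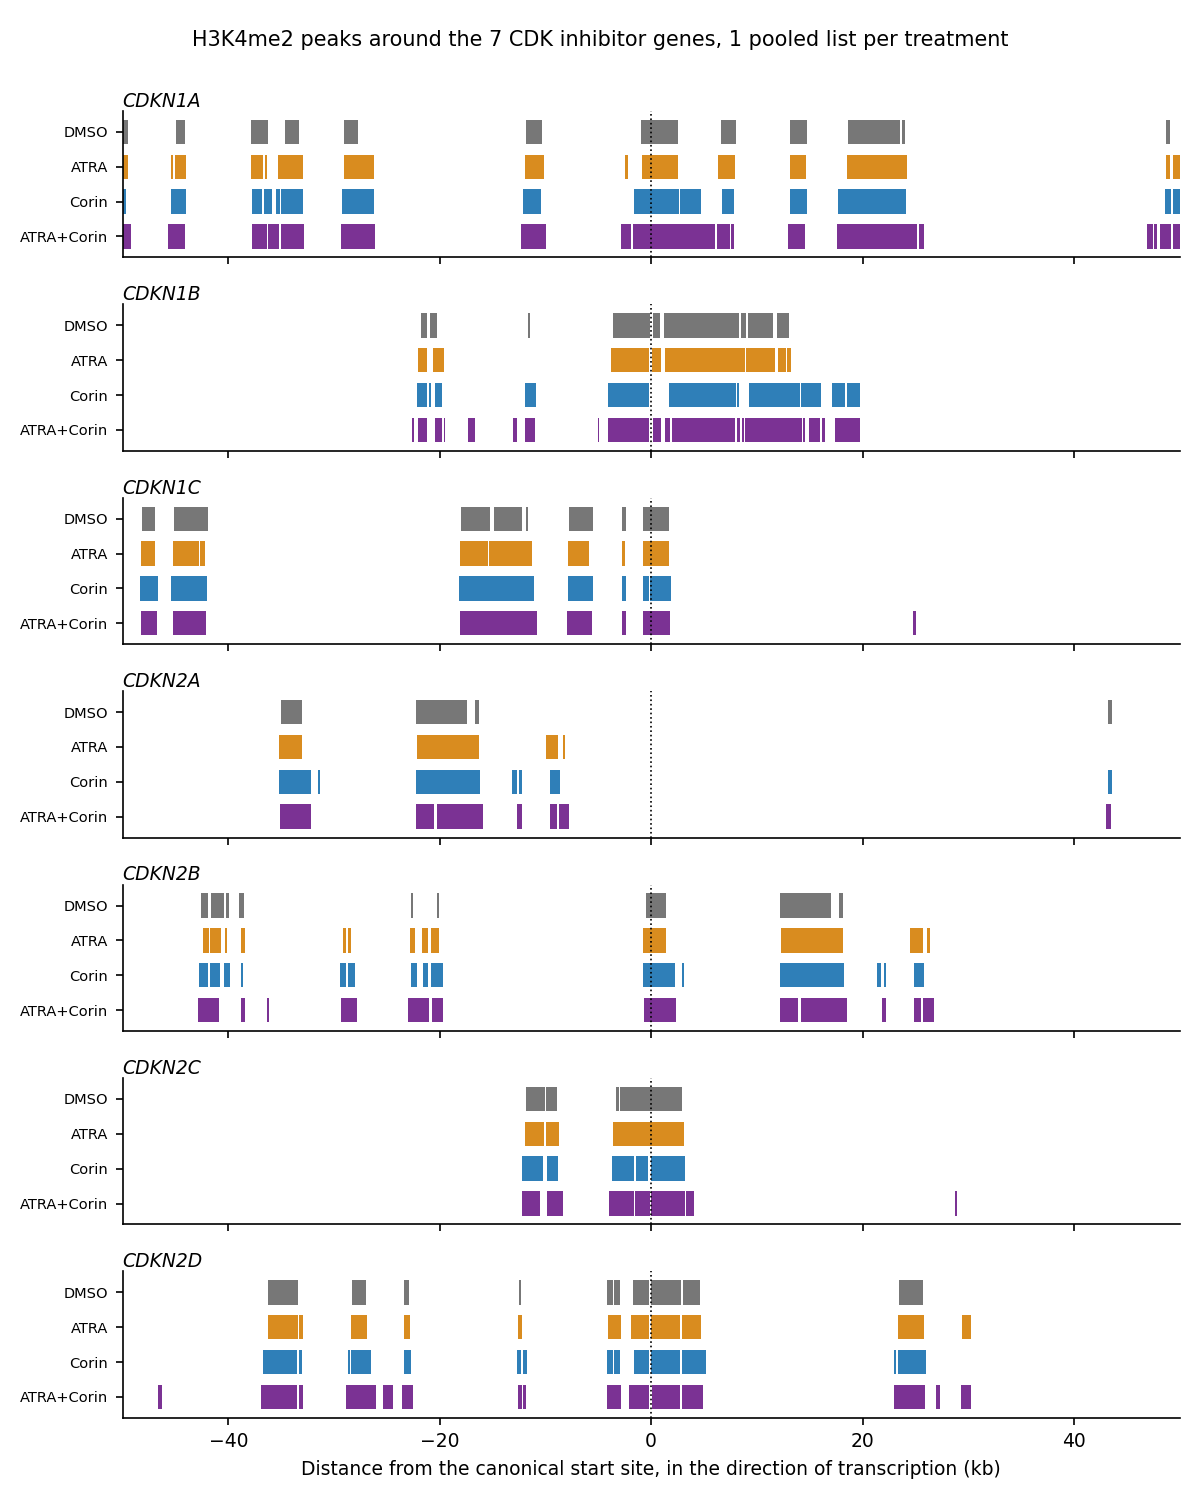
Position of each H3K4me2 peak (coloured bars) by distance from the canonical start site in kb (horizontal axis, positive in the direction of transcription) for the 7 genes, with 1 row for each treatment's list. The ATRA+Corin rows hold additional narrow peaks between the blocks seen in all rows, and CDKN2A has no peak at its canonical start (dotted line) in any row.

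CDKN1A encodes the inhibitor known as WAF1 or CIP1, a classical target of the tumour suppressor p53 and a gene that also responds to differentiation signals. Its start site (chr6:36678714) lay under a peak in each list, and this peak ranked 20 among the 65172 DMSO peaks by the authors' −log10 p. The peak was 3574 bp wide with DMSO, 3453 bp with ATRA, 4204 bp with Corin and 7761 bp with ATRA+Corin. Its summit held 454 H3K4me2 fragments with DMSO, 508 with ATRA, 299 with Corin and 250 with ATRA+Corin. Peak width and summit height therefore went in opposite directions in the combination list, where the peak was the widest and its summit the lowest.

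To compare summits between lists, fragments were divided by the relative depth of the list, and the highest peak within 1 kb of the start was set against its DMSO value. Among 12050 genes with such a peak in each list, the median ratio to DMSO was 1.30 with ATRA, 0.748 with Corin and 0.978 with ATRA+Corin. Members are therefore given relative to these medians, with 95% exact intervals that cover counting error only. Relative to the median gene, the CDKN1A summit with ATRA+Corin was 0.470 of its DMSO value (0.401 to 0.549), and 0.440% of the 12050 genes had a lower ratio. Among the 479 genes whose DMSO summit held at least 300 scaled fragments, 0.626% were lower and the median was 0.869. With Corin alone the CDKN1A value was 0.802 (0.691 to 0.930), and 14.4% of the 12050 genes and 24.6% of the 479 had a lower ratio. With ATRA alone the CDKN1A value was 0.845 (0.743 to 0.962), with 11.4% and 10.6% lower. It was 1.10 when scaled by depth only, so its direction depends on the scaling. The DMSO summit lay 1273 bp downstream of the start and the other 3 between 187 and 198 bp downstream, so the summits compared are not at the same place.

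Within 5 kb of the CDKN1A start, peaks covered 3574 bp with DMSO, 3669 bp with ATRA, 6162 bp with Corin and 7623 bp with ATRA+Corin. The increase of 4049 bp in the combination was above that of 99.2% of the 12050 genes. Over the whole window, the increase of 15.3 kb was above that of 98.7% of the 19970 protein-coding genes, whose median was 1.92 kb. Peaks already covered 19.4 kb of this window with DMSO, against a median of 5.95 kb for all genes, and the rank does not correct for that. The window held 10 regions with DMSO, 12 with ATRA, 11 with Corin and 15 with ATRA+Corin. An upstream region outside genes, chr6:36640826-36645861, joins separate peaks that differed in opposite directions. The peak nearer the start held 92 fragments with DMSO, 127 with ATRA, 155 with Corin and 235 with ATRA+Corin. The farthest one held 94, 91, 88 and 72.

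The gained region closest to the CDKN1A start, chr6:36675889-36676786, held no peak with DMSO or Corin. With ATRA a peak of 216 bp with 35 fragments lay there (−log10 q 6.85), and with ATRA+Corin a peak of 898 bp with 74 fragments (−log10 q 26.5). This was the gained region with the highest −log10 q of the 24. The sequence under both peaks is shown because it holds a pair of CATG cores 6 bases apart, the spacing of a p53 site, in capitals, upstream of the canonical start and across the annotated 5′ end of the gene.
CDKN1A upstream region, chr6:36676444-36676473, plus strand: gtcaggaaCATGtcccaaCATGttgagctc
Such a pair occurred at 10 places in the CDKN1A window, 2 of them in a region. The CDKN1B window held 7, with 2 in a region, and the CDKN2D window 20, with 2 in a region. A pair in the CDKN2D window, chr19:10605374-10605387, lay under a peak with Corin and ATRA+Corin but not with DMSO or ATRA. Such a pair was found in 4.31% of the 84577 regions after each was taken as 898 bp around its centre, and in 0.283% of promoters. U-937 is known as a line that lacks functional p53, and binding was not measured here. Other gained regions of the window lay in exons or an intron of RAB44, between 25374 and 49335 bp downstream.

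CDKN1B encodes KIP1, an inhibitor that quiescent and differentiating cells accumulate, largely through protein stability. Its canonical start (chr12:12717368) lay under no peak in any list. The nearest peak was 152 bp away with DMSO, 65 bp with ATRA, 236 bp with Corin and 213 bp with ATRA+Corin. Upstream of this gap, a peak of 3488 to 3831 bp was present in each list, with 103 fragments at the summit under DMSO, 137 under ATRA, 62 under Corin and 89 under ATRA+Corin. The mark thus flanked the start on the upstream side in every list, and what lay just downstream differed.

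A narrow peak directly after the CDKN1B start, within chr12:12717433-12718314, held 23 fragments with DMSO, 21 with ATRA and 17 with ATRA+Corin. It was absent with Corin, and its −log10 q was 6.50, 6.51 and 0.622 in the lists that held it. Beyond it, the broad region from 1232 bp after the start (chr12:12718600-12733407) covered 11072 bp with DMSO, 11345 bp with ATRA, 13215 bp with Corin and 13522 bp with ATRA+Corin. The peak in it with its summit between 6984 and 7093 bp after the start, held 174 fragments with DMSO, 260 with ATRA, 93 with Corin and 116 with ATRA+Corin. Within 5 kb of the start, peaks covered 7901 bp with DMSO, 7161 bp with Corin and 8169 bp with ATRA+Corin. The Corin difference from DMSO was negative, and 0.573% of the 12050 genes had a lower one. Relative to the median gene, the summit of the highest peak within 1 kb was 0.733 with Corin (0.526 to 1.01) and 0.737 with ATRA+Corin (0.549 to 0.988). These summits lay at -489 bp (DMSO), -3549 bp (Corin) and -1317 bp (ATRA+Corin) from the start, so they are not at the same place.

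CDKN1B had 6 regions with DMSO, 5 with ATRA, 6 with Corin and 12 with ATRA+Corin. Its 6 gained regions in the combination were matched by CDKN2D, and 92.3% of protein-coding genes gained fewer. Of the 6, 4 lay upstream in introns annotated to CDKN1B and 2 downstream in an intron of APOLD1. Most were weak, with 14 to 30 fragments, apart from a region 17108 bp downstream that Corin also held and that had 35. At equal depth 3 regions were gained.

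CDKN1C encodes KIP2, an imprinted inhibitor that restrains growth in the embryo and is expressed from the maternal copy. Its start (chr11:2885775, minus strand) lay under a peak in each list, with widths of 2487 bp (DMSO), 2475 bp (ATRA), 1957 bp (Corin) and 2547 bp (ATRA+Corin). With Corin a separate peak of 538 bp lay just upstream in the same region, and the Corin peaks there covered 2495 bp together. The summit held 140 fragments with DMSO, 211 with ATRA, 127 with Corin and 192 with ATRA+Corin. Relative to the median gene these were 1.14 with ATRA (0.915 to 1.42), 1.10 with Corin (0.862 to 1.41) and 1.17 with ATRA+Corin (0.936 to 1.46), all with intervals that include 1. With Corin the ratio scaled by depth only was 0.827, on the other side of 1. The number of regions differed little: CDKN1C had 6 regions with each of DMSO, ATRA and Corin and 7 with ATRA+Corin, and its 1 gained region, 310 bp with 17 fragments, lay 24754 bp downstream in an exon of KCNQ1-AS1.

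**Figure D3:**
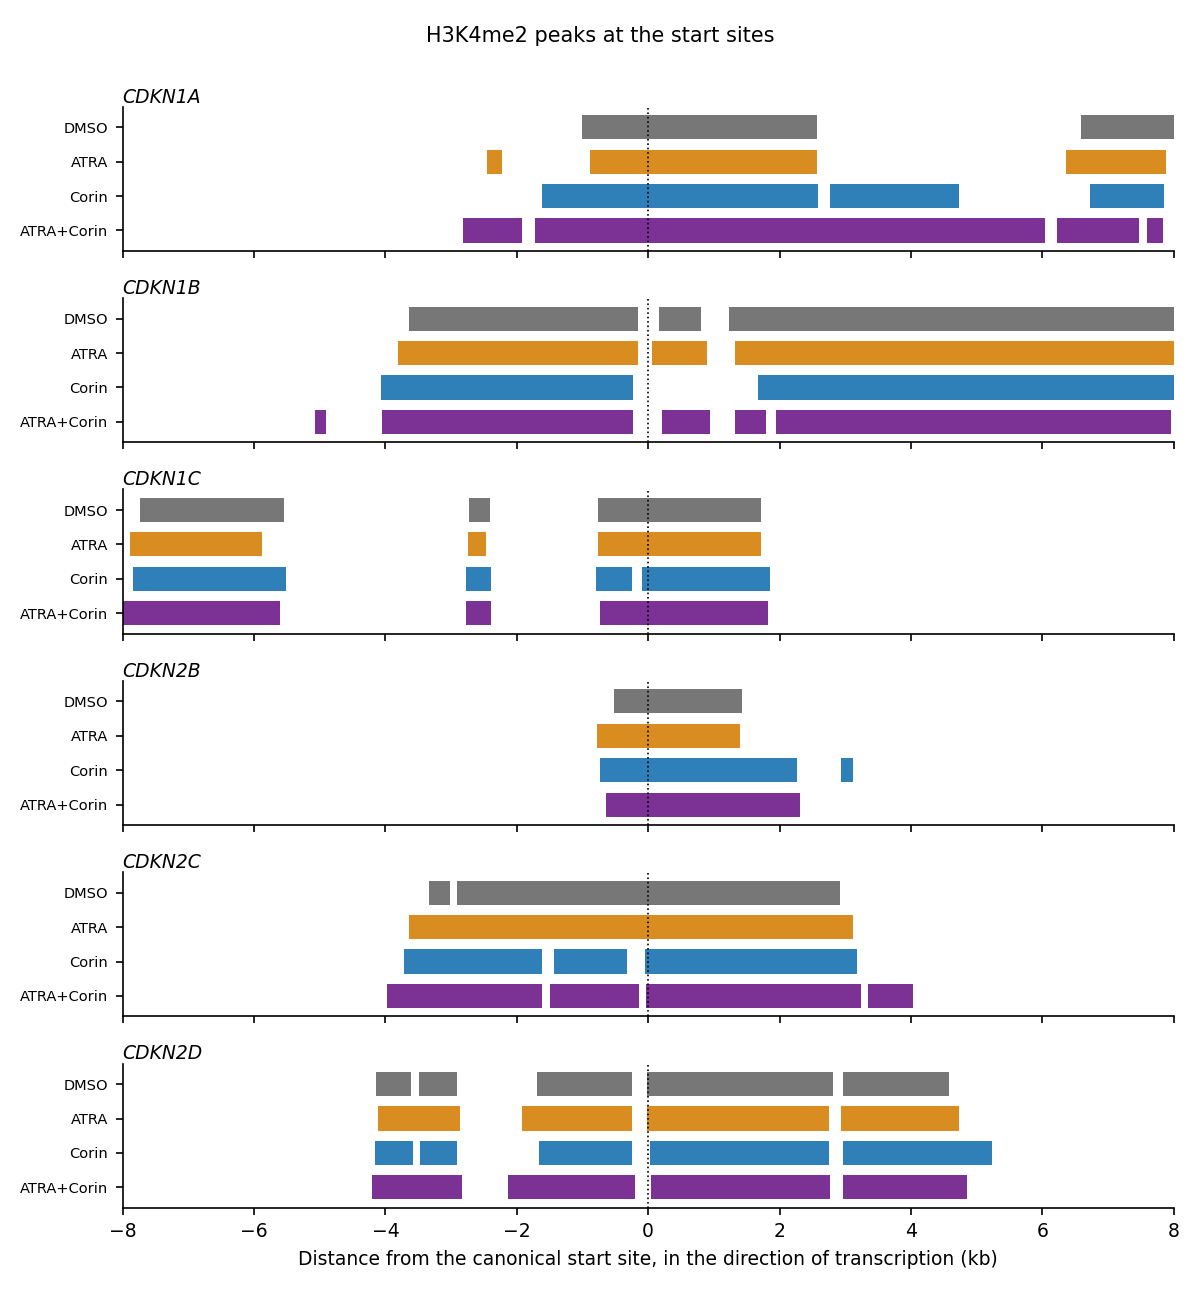
H3K4me2 peaks (coloured bars) within 8 kb of the canonical start site (dotted line, horizontal axis in kb in the direction of transcription) of the 6 genes with a peak within 1 kb, with 1 row for each treatment's list. The CDKN1A peak is widest with ATRA+Corin, the CDKN1B start falls in a gap in all rows, and the CDKN2D peak begins just before the start with DMSO and ATRA and just after it in the other rows.

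CDKN2A encodes the INK4A protein from its canonical start and, from an upstream first exon read in another frame, ARF, which stabilizes p53. At the INK4A start (chr9:21974857, minus strand) no peak lay within 1 kb in any list. The nearest peak was 16331 bp away with DMSO, 8118 bp with ATRA, 8645 bp with Corin and 7729 bp with ATRA+Corin. The ARF start (chr9:21995324) lay inside a broad peak with DMSO (4841 bp), ATRA (5934 bp) and Corin (6031 bp). With ATRA+Corin it fell in a gap, 79 bp from the nearest peak. The summit near the ARF start held 109 fragments with DMSO, 157 with ATRA, 89 with Corin and 134 with ATRA+Corin. Divided by relative depth, these were 109, 154, 81.1 and 112, so the combination was close to DMSO. The promoters at both starts held 26 and 28 CpG, and of the 2 starts only that of ARF had a peak within 1 kb.

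The CDKN2A window held 3 regions with DMSO, 3 with ATRA, 7 with Corin and 5 with ATRA+Corin. Gained regions in the first intron, between the ARF and INK4A starts, were present with Corin and, for the most part, ATRA+Corin. The strongest, chr9:21982586-21984830, was absent with DMSO and held 19 fragments with ATRA, 23 with Corin and 27 with ATRA+Corin. Its −log10 q was 4.94, 6.54 and 5.95 in that order. Corin gained 4 regions in the CDKN2A window, but 1 with a −log10 q of at least 5, 2 with lists of equal length and 2 at equal depth. For ATRA+Corin these counts were 2, 3, 2 and 3. The neighbouring gene MTAP, which encodes an enzyme of methionine salvage and lies next to CDKN2A, had its start under a peak in each list. Its scaled summit was 115 fragments with DMSO, 119 with ATRA, 93.0 with Corin and 95.1 with ATRA+Corin.

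CDKN2B encodes INK4B, an inhibitor induced by TGF-beta. Its start (chr9:22009305, minus strand) lay under a peak in each list, of 1959 bp with DMSO, 2183 bp with ATRA, 3005 bp with Corin and 2943 bp with ATRA+Corin. The summit held 144, 159, 94 and 84 fragments in that order. Relative to the median gene, the ATRA+Corin summit was 0.497 of DMSO (0.375 to 0.656), and 0.664% of the 12050 genes had a lower ratio. With Corin the value was 0.795 (0.606 to 1.04). With ATRA it was 0.834 (0.662 to 1.05), against 1.09 when scaled by depth only. The CDKN2B start-site peak thus had a lower summit and a larger width with ATRA+Corin than with DMSO. The length covered within 5 kb was larger by 984 bp, above 63.7% of the 12050 genes, against 99.2% for CDKN1A.

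The CDKN2B window held 7 regions with DMSO, 9 with ATRA, 12 with Corin and 10 with ATRA+Corin. Corin alone gained 5 regions, more than 97.0% of protein-coding genes, and the combination 4. Of the 5, 4 also lie in the CDKN2A window and were counted there too. In 10 kb windows the Corin gain was 1, and with lists of equal length it was 3. The length covered in regions over CDKN2B-AS1, an antisense RNA of this locus, differed in both directions. In chr9:22028978-22030128 peaks covered 190 bp with DMSO, 696 bp with ATRA, 1151 bp with Corin and 1015 bp with ATRA+Corin. In chr9:22047746-22048269 they covered 424 bp with DMSO, 321 bp with ATRA, 199 bp with Corin and 327 bp with ATRA+Corin. The summit there held 30, 34.4, 22.8 and 27.5 scaled fragments in that order, so with ATRA the peak was narrower but its summit was not lower. The region chr9:22037087-22038716, absent with DMSO, held 22 fragments with ATRA, 34 with Corin and 45 with ATRA+Corin. The lost region, chr9:22049169-22049666, was present with DMSO, ATRA and Corin at 18 to 21 fragments and was not called with ATRA+Corin.

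CDKN2C encodes INK4C, an inhibitor known to limit the self-renewal of blood stem cells. Its canonical start (chr1:50970245) lay under a peak in each list. With DMSO a peak of 5830 bp, and with ATRA one of 6755 bp, ran over both this start and the CpG-rich start upstream of it (chr1:50968706). With Corin and with ATRA+Corin the same stretch held several peaks, and the upstream start fell in a gap, 73 bp and 39 bp from the nearest peak. At the canonical start the peak then measured 3226 bp with Corin and 3269 bp with ATRA+Corin. The covered length within 5 kb was 6452 bp with Corin against 6144 bp with DMSO, so the covered length was not shorter.

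The CDKN2C summit was 122 fragments with DMSO, 144 with ATRA, 54 with Corin and 113 with ATRA+Corin, taken over peaks within 1 kb of the canonical start. Relative to the median gene the Corin value was 0.539 (0.384 to 0.749), and 0.216% of the 12050 genes had a lower ratio. That value depends on which peak was within 1 kb: near the upstream start Corin had a peak of 80 fragments. The ATRA value was 0.892 (0.696 to 1.14), against 1.16 scaled by depth only, and the ATRA+Corin value was 0.790 (0.606 to 1.03). CDKN2C had 3 regions with each of DMSO, ATRA and Corin and 5 with ATRA+Corin, with 2 gained, of 22 and 17 fragments.

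CDKN2D encodes INK4D, which like the other INK4 proteins binds CDK4 and CDK6. Its start (chr19:10568979, minus strand) lay at the edge of a peak, which began 16 bp before the start with DMSO and 11 bp before with ATRA. The peak began 23 bp after the start with Corin and 46 bp after with ATRA+Corin. The peak was 2719 to 2827 bp wide, so the start changed from under a peak to beside one while the peak kept nearly the same width. The summit held 233 fragments with DMSO, 291 with ATRA, 184 with Corin and 249 with ATRA+Corin. Relative to the median gene these were 0.944 with ATRA (0.792 to 1.13), 0.962 with Corin (0.788 to 1.17) and 0.911 with ATRA+Corin (0.759 to 1.09). The intervals include 1, and the ATRA value is above 1 (1.23) when scaled by depth only. The DMSO summit lay 301 bp after the start and those of the treated lists 1846 to 1859 bp after it, so the summits compared are not at the same place.

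The CDKN2D window held 9 regions with DMSO, 11 with ATRA, 11 with Corin and 15 with ATRA+Corin. All 6 regions gained with ATRA+Corin lay over 10 kb from the start. One of them, chr19:10601908-10602322, was present in each treated list, with 37 fragments (ATRA), 28 (Corin) and 36 (ATRA+Corin). Another, chr19:10538718-10539631, was present with ATRA (32 fragments) and ATRA+Corin (37) but not with Corin.

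**Figure D4:**
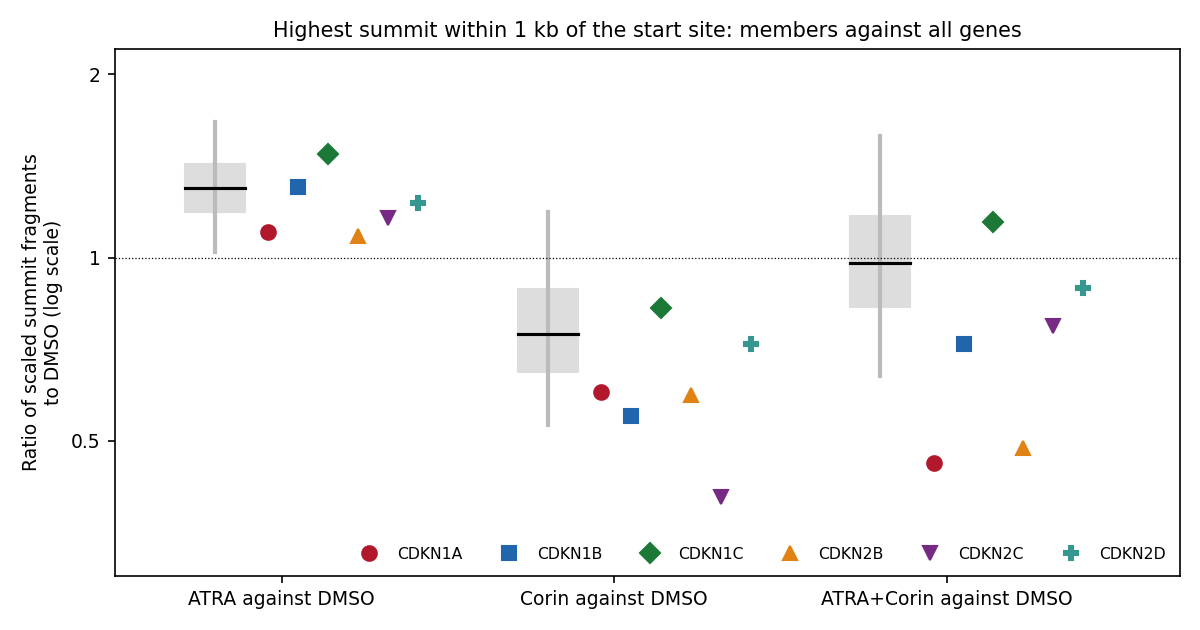
Ratio to DMSO of the scaled fragments at the summit of the highest peak that reaches within 1 kb of the start site (vertical axis, log scale). The summit itself can lie farther away and at different places in different lists. Values are for 6 members (symbols), beside all 12050 genes (grey line 5th to 95th percentile, grey box 25th to 75th, black line median). With ATRA+Corin, CDKN1A at 0.459 and CDKN2B at 0.487 lie below the grey line, and with Corin CDKN2C at 0.403 does. That CDKN2C value sets a Corin summit at -857 bp from the start against a DMSO summit at -1860 bp (122 scaled fragments). The Corin peak with its summit at -1817 bp, which held 72.9 scaled fragments, was not within 1 kb.

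Across the members, the canonical start lay under a peak for 5 of 7 with DMSO (47.3% of all protein-coding genes), 5 with ATRA (48.1%), 4 with Corin (38%) and 4 with ATRA+Corin (38%). A peak within 1 kb was present for 6 of 7 in each list, against 61.3%, 61.5%, 61.5% and 62.3% of all genes. CDKN2D was the member that changed. A lower share of covered starts in the lists with Corin was thus a feature of all genes and was not particular to the inhibitors. Among the 6 members with a peak within 1 kb, the length covered within 5 kb of the start was larger with ATRA+Corin than with DMSO by 117 bp (CDKN1C) to 4049 bp (CDKN1A), and the median over the 12050 genes was 686 bp. CDKN1A, CDKN2B, CDKN2C and CDKN2D lay above that median, and CDKN1B and CDKN1C below it.

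The partners of the inhibitors were read in the same way. All 16 genes of the list of kinases, cyclins and pocket proteins had a DMSO peak within 1 kb of the start, as did all 9 regulators of the inhibitors. Against DMSO, 6 of these 16 gained a region with ATRA (42% of all protein-coding genes), 6 with Corin (54%) and 10 with ATRA+Corin (67.8%). A region was lost by 5, 8 and 6 of the 16, against 24.8%, 25.8% and 20.3% of all genes. Of the 9 regulators, 6 gained a region with ATRA, 9 with Corin and 9 with ATRA+Corin, beside the same 42%, 54% and 67.8% of all genes. The regulators that lost one numbered 2, 4 and 3. CDK4, a target of the INK4 proteins, had 7 regions with DMSO, 6 with ATRA, 6 with Corin and 7 with ATRA+Corin. CDK6, the other INK4 target, had 10, 8, 12 and 11, with 4 gained and 3 lost in the combination. CCND3, the D-type cyclin of many blood cells, had 11, 11, 13 and 18. RB1, the gene of the retinoblastoma protein, had 15, 16, 14 and 15, with 3 gained and 3 lost.

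FOXO3, a transcription factor that activates CDKN1B, gained the most regions of these genes in the combination, going from 11 regions with DMSO to 13 with ATRA, 13 with Corin and 20 with ATRA+Corin. BMI1, a Polycomb repressor of CDKN2A, gained 8 regions and lost 3. It had a peak within 1 kb of its start with DMSO and ATRA, with 31.0 and 27.5 scaled fragments, and none with Corin or ATRA+Corin. These lists were small and the genes' windows differ in length, so the counts describe the lists only.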

How the data were processed

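The deposited values are 4 peak lists, 1 for each treatment, on hg38 per the submitters' processing notes, which name Trimmomatic, Bowtie2, Picard and MACS2 without versions. The treatment of each list is the one in its deposited name, which describes peaks reproducible by overlap; no list per replicate was used here. The deposited score was not used in any result. The fold enrichment over input (a ratio), the −log10 p and the −log10 q at each summit are the authors' own values. No peak passed a chromosome end of GRCh38.

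Peaks that overlapped or touched were merged across lists into regions (Python 3.11.15, with pandas 2.3.3, numpy 2.4.6 and scipy 1.17.1). H3K4me2 fragments at a summit, and the relative depth of each list, were recovered by solving the deposited fold and −log10 p for a whole number of fragments. The solver was tested on simulated data, and 43 ATRA peaks were not solved. Start sites are canonical GENCODE starts. Intervals are exact binomial and cover counting error only, since there is 1 list per treatment. No molecular identifiers were available for the reads. The named genes are the 7 members, CDK4, CDK6, CCND3, RB1, the pathway genes with the most gained or lost regions, and MTAP. The rule for the members uses names only, but the members and lists were chosen with earlier results of these data known. The depth of single libraries is unknown.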

Additional observations from a re-analysis of the deposited data

How the results depend on the processing

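In each of the 5 contrasts, gained regions outnumbered lost ones under all 9 settings run, but the counts depended on the window and on how peaks were merged. No paired analysis was possible because there is 1 list per treatment and the counts come from no test; for the same reason leaving out a replicate was not run.

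Counts are given in the order ATRA, Corin and ATRA+Corin against DMSO, then ATRA+Corin against ATRA and against Corin. A window of 10 kb gave 2, 4, 8, 7 and 7 gained regions, and 1, 0 and 0 lost for ATRA, ATRA+Corin against DMSO and ATRA+Corin against ATRA. A window of 100 kb gave 13, 22, 48, 41 and 31 gained and 5, 3, 3, 4 and 5 lost. Merging peaks within 1 kb left 3, 3, 9, 8 and 6 gained, and 0 lost in each contrast other than ATRA against DMSO. Single peaks with 50% overlap gave 13, 24 and 41 gained for the first 3 contrasts, and 4 and 2 lost for Corin and ATRA+Corin against DMSO. A −log10 q of at least 5 gave 10 and 11 gained for the last 2 contrasts, and 1, 2, 2 and 2 lost for the first 4. Lists of equal length gave 15, 11 and 10 gained for the last 3, and 3 lost each for ATRA+Corin against DMSO and against ATRA. At equal depth, chosen after seeing the data, the combination gained 11 against ATRA and 10 against Corin, and lost 3 against DMSO and 2 against ATRA.

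The length covered was 43.4 kb (DMSO), 48.1 kb (ATRA), 50.4 kb (Corin) and 58.6 kb (ATRA+Corin) in 10 kb windows, and 127.9, 146.6 and 197.8 kb for DMSO, ATRA and ATRA+Corin in 100 kb windows. Of the 120 alternative values of these summary results, 66 stayed within 1.5 times the reported one.

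The scalings of summit fragments were also chosen after seeing the data. Scaled by background only and then unscaled, the ATRA ratio was 1.10 and 1.12 for CDKN1A, 1.09 and 1.10 for CDKN2B, 1.16 and 1.18 for CDKN2C, and 1.23 and 1.25 for CDKN2D, where the ratios relative to the median gene were below 1. The Corin ratio of CDKN1C was 0.827 and 0.907 in place of a value above 1, and the unscaled ATRA+Corin ratio of CDKN2D was 1.07 in place of one below 1. The low ATRA+Corin summits of CDKN1A and CDKN2B stayed below 1 under both scalings, at 0.459 and 0.551 for CDKN1A and 0.487 and 0.583 for CDKN2B. Peak lists give 1 summit per peak, so a split peak changes which summit is read.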
